A study of Mus musculus with 6 samples.

Results

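The respiratory chain of the mitochondrial inner membrane is built from proteins of both genomes of the cell, and RNA of both was counted here. The genes were chosen by symbol: those starting with Nduf, Cox followed by a digit, Uqcr, Atp5 or mt-, without names holding -ps. These are 112 of the 22298 genes of the deposited mRNA table, 99 of them nuclear and 13 mitochondrially encoded (mt-). Sorted by symbol, the nuclear genes comprised 36 of complex I, 8 of complex III, 20 of complex IV, 18 of complex V and 17 factors of assembly (Ndufaf and Cox10 to Cox20). Ndufa4 and Ndufa4l2 were placed in complex IV, to which Ndufa4 belongs despite its name. The 13 mt- genes were 7 of complex I, 1 of complex III, 3 of complex IV and 2 of complex V. Cox8c and the second of the gene identifiers named Atp5o had 0 counts in every library. Of the 112 genes, 91 nuclear and all 13 mt- genes passed edgeR's filter on low counts (filterByExpr) and were tested.

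Total RNA was sequenced from GC-1spg, a mouse line of immortalised cells that serves as a type B spermatogonial model, in 3 libraries given a control siRNA (si-NC) and 3 given an siRNA against Mettl3 (si-METTL3). METTL3 is the catalytic subunit of the complex that writes N6-methyladenosine into messenger RNA. All cells were grown in DMEM with 10% FBS, transfected at 60% density and collected after 48 h. The labels print the same sequence for both siRNAs, so the control's own sequence is unknown, and si-NC is tagged as untreated. No library of untransfected cells, no second siRNA and no second cell line was analysed here, and the labels do not say whether replicates were separate cultures. The p-values therefore measure only how these samples vary, and that spread may be technical.

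Complex I takes electrons from NADH and passes them to ubiquinone, complex III passes them on to cytochrome c, and complex IV passes them to oxygen. These complexes pump protons, and complex V, the ATP synthase, makes ATP from the proton gradient. The mitochondrial genome encodes the hydrophobic core subunits of complexes I, III, IV and V, whereas all other subunits and the factors that assemble them are read from nuclear genes, translated in the cytosol and imported.

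The library totals of the mRNA table lay between 29679593 and 37698956 counts for si-NC, and for si-METTL3 between 22146057 and 31469144. Mettl3 itself stood at 17.3, 19.2 and 18.6 CPM (counts scaled by edgeR's cpm to the effective library size) in si-NC replicates 1 to 3, and at 4.44, 5.97 and 5.52 CPM in si-METTL3. The groups did not overlap (log2 fold change -1.79, SE 0.14, adjusted p = 0.000579 by edgeR's quasi-likelihood test with Benjamini-Hochberg adjustment). Among 18 spermatogonial markers, 8 were tested and 3 (Sall4, Nanos2 and Tex101) had no count in any library. The germ cell genes Ddx4 and Dazl reached at most 0.284 and 0.0332 CPM in any library, so these defining markers of germ cells were near 0, while Uchl1 stood between 35.1 and 41.3 CPM. All 18 together came to 153, 153 and 154 CPM in si-NC against 213, 202 and 220 CPM in si-METTL3, without overlap (median log2 fold change 0.70 over the 8 tested), and Itga6 (0.59) and Gfra1 (0.65) rose. Markers of other tissues differed between libraries. Sftpc, the lung surfactant protein C gene, had 1.08, 0.0332 and 30.8 CPM in si-NC replicates 1 to 3 and 47.0, 47.5 and 32 CPM in si-METTL3. The sum of 19 lung markers was 90.8, 78.8 and 164 CPM in si-NC against 207, 211 and 172 CPM in si-METTL3, and that of the 7 blood markers was 0.627, 0.862 and 12.2 against 18.9, 15.9 and 12.5 CPM. For 15 macrophage and endothelial genes the sum was between 29.7 and 53.9 CPM in si-NC and between 53.7 and 66.4 CPM in si-METTL3, and for 17 heart and muscle genes it was 6.81 to 7.23 and 9.37 to 10.4 CPM. For the muscle genes the groups did not overlap, and Myl7 (1.53) rose. The 13 brain genes came to 70.3, 71.1 and 76.1 against 90.4, 87.0 and 88.3 CPM, also without overlap, and Slc1a2 (1.51) and Syt1 (1.28) rose. For 7 brown fat, liver and kidney genes the sum was 125, 201 and 190 CPM in si-NC. In si-METTL3 it was 206, 153 and 205 CPM, so here the groups overlapped. The part of RNA of other tissues in the values below was not tested.

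In si-METTL3 13 nuclear genes fell and 2 mt- genes rose, and the other members did not pass the test. Of the 91 tested nuclear genes the 13 were the only calls and none rose, where 10.2% of all 13082 tested genes fell, so the share of calls lay near that of all genes. At an unadjusted p under 0.05, 32 nuclear genes were lower, where 18.8% of all tested genes were, and none was higher. DESeq2 called 19 lower, where it called 10.9% of all genes it tested lower, and none higher. The median log2 fold change of the nuclear genes was -0.20 (range -0.77 to 0.23), against 0.03 over all tested genes, and 83 of 91 had a value below 0, against 47.0% of all tested genes. In 39 of the 91 the CPM of all 3 si-METTL3 libraries lay below those of all 3 si-NC libraries and in none above. Over all tested genes these shares were 21.3% lower and 20.2% higher. Of the 13 mt- genes 2 rose and none fell, where 8.67% of all tested genes rose. At an unadjusted p under 0.05, 6 mt- genes were higher, where 16.9% of all tested genes were, and none was lower. DESeq2 called 6 higher, where it called 9.17% of all genes higher, and none lower. Their median was 0.55 (range -0.06 to 0.91), and 12 of 13 had a value above 0. In bulk RNA, fewer cells of a type and less RNA per cell cannot be told apart.

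**Figure D1:**
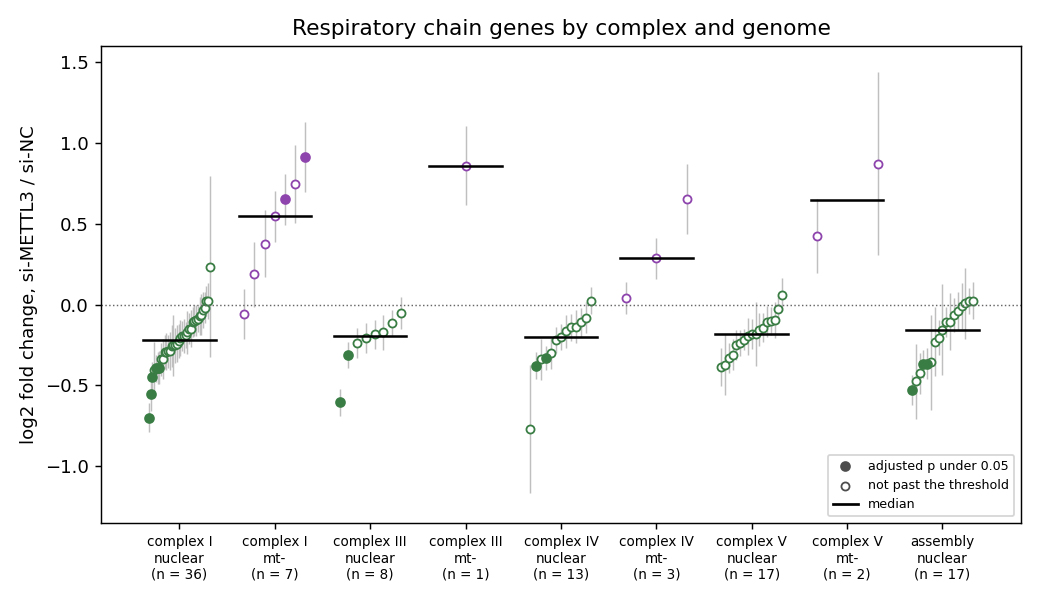
Log2 fold change of si-METTL3 against si-NC (vertical axis) for each tested gene, sorted by complex and genome (horizontal axis), with the standard error as a grey line, the median of each group as a black bar and filled points for adjusted p under 0.05. The medians of the nuclear groups lie between -0.22 and -0.16 and those of the mt- groups between 0.28 and 0.86.

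Complex I was the largest group and held the largest number of called genes. Of its 36 nuclear genes, all tested, 6 fell and none rose, where 10.2% of all tested genes fell (median -0.22). Values below 0 numbered 33, and 15 genes were lower without overlap of the groups, against 47.0% and 21.3% of all tested genes. Ndufs3 (ENSMUSG00000005510; chromosome 2, 90894634 to 90904827, minus strand, GRCm38) encodes a core subunit of the arm that reaches into the matrix. Its levels were 76.1, 75.0 and 89.9 CPM in si-NC and 49.9, 49.2 and 49.2 CPM in si-METTL3. Every si-METTL3 library lay below every si-NC library, a 1.62-fold difference of the fitted levels (log2 fold change -0.70, SE 0.09, edgeR adjusted p = 0.00427). Ndufs7 encodes the core subunit with the iron-sulfur cluster that hands electrons to ubiquinone. It stood at 90.4, 78.2 and 103 CPM in si-NC and at 62.4, 62.9 and 59.6 CPM in si-METTL3, again without overlap (-0.55 on the log2 scale, SE 0.11, edgeR adjusted p = 0.0159).

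The windows around the start sites of Ndufs3 and Ndufs7 are shown because these genes, with Uqcrc1 below, gave the largest falls among the nuclear genes with a RefSeq entry. Each runs from 250 bases before to 50 bases after the start (RefSeq, GRCm38.p6). Ndufs3 is at chr2:90904672-90904971 on the minus strand, with capitals marking both matches to the ETS motif CCGGAAG, one on each strand. Ndufs7 is at chr10:80249199-80249498 on the plus strand, with capitals marking the YY1 motif AAGATGGCG.
Ndufs3: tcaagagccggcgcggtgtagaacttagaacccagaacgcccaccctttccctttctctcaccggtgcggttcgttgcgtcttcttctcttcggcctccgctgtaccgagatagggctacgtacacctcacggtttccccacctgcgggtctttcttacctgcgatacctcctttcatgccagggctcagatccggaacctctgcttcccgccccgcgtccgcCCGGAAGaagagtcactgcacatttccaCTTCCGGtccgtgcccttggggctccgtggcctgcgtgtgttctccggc
Ndufs7: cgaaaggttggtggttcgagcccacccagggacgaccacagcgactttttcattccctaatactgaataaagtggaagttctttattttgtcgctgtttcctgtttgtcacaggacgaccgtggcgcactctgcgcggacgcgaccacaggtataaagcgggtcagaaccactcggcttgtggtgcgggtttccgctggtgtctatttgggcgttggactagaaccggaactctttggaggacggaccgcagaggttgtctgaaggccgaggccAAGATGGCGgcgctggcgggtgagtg

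The other 4 called genes of complex I encode accessory subunits, which surround the catalytic core. Ndufa6, whose product carries an acyl carrier protein on the matrix arm, fell from 34.4 ± 3.38 CPM (SD, n = 3) to 25.2 ± 0.528 (log2 fold change -0.45). Ndufa10 fell from 207 ± 19.3 to 157 ± 2.89 CPM (-0.39), Ndufb8, of the membrane arm, from 130 ± 16.4 to 98.8 ± 2.42 (-0.39), and Ndufa7 from 111 ± 14.1 to 84.8 ± 3.76 (-0.39). In all 4 the groups did not overlap, and the edgeR adjusted p lay between 0.02 and 0.0415. Other core subunits did not pass. Ndufs8, an iron-sulfur subunit, had 94.1 ± 6.69 and 82.5 ± 3.19 CPM (log2 fold change -0.19, SE 0.08), and Ndufs1, the large iron-sulfur subunit, -0.21 (SE 0.11). Ndufv2 had a log2 fold change of -0.10 (SE 0.10). Ndufv1, which binds NADH and flavin, gave 171, 151 and 188 CPM in si-NC and 179, 173 and 166 CPM in si-METTL3, with the groups fully interleaved (0.02, SE 0.09). By FPKM, the authors' value per length of transcript, Ndufb9 (mean over 6 libraries 181 FPKM) and Ndufa7 (157 FPKM) had the highest levels of the complex. Ndufb9 had a log2 fold change of -0.10 (SE 0.10).

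In complex III, 2 of 8 nuclear genes fell and none rose (median -0.20), where 10.2% of all tested genes fell. All 8 values were below 0 and 5 were lower without overlap, against 47.0% and 21.3% of all tested genes. The called genes, Uqcrc1 and Uqcrc2, encode the pair of large core proteins on the matrix side. Uqcrc1 (ENSMUSG00000025651; chromosome 9, 108936633 to 108949623, plus strand, GRCm38) had 254, 220 and 258 CPM in si-NC and 166, 163 and 152 CPM in si-METTL3. Its groups were far apart, by 1.52-fold (log2 fold change -0.61, SE 0.08, edgeR adjusted p = 0.00553). In the same complex, Uqcrc2 had 227, 201 and 226 CPM in si-NC and 188, 171 and 167 CPM in si-METTL3, also without overlap (-0.31, SE 0.08, edgeR adjusted p = 0.0361). Uqcrfs1, the Rieske iron-sulfur protein, did not pass (150 ± 14.2 and 130 ± 7.16 CPM, -0.21, SE 0.09). Nor did Uqcrq (-0.24, SE 0.09), a small subunit near the ubiquinone site, which with Uqcr10 had the highest mean levels of the complex (272 and 236 FPKM, Uqcr10 -0.18). The window around the start site of Uqcrc1 is at chr9:108936398-108936697 on the plus strand (RefSeq, GRCm38.p6). Its capitals mark the NRF1 motif GCGCATGCG, which nearly reads the same on both strands and matched on each.
Uqcrc1: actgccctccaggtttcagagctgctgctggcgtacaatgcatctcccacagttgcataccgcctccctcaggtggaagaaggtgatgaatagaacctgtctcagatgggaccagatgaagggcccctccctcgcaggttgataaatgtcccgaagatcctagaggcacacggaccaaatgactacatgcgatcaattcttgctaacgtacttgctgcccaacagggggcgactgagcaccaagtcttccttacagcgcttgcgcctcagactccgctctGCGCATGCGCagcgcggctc

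Of the 20 nuclear genes of complex IV 13 were tested, of which 2 fell and none rose (median -0.20), where 10.2% of all tested genes fell. Values below 0 numbered 12, and 7 genes were lower without overlap, against 47.0% and 21.3% of all tested genes. Cox7a2l, whose product joins complexes III and IV into supercomplexes, had 196, 176 and 209 CPM in si-NC and 153, 142 and 152 CPM in si-METTL3 (log2 fold change -0.38, SE 0.08, edgeR adjusted p = 0.0234). Cox6c, an accessory subunit, had 202, 187 and 209 CPM in si-NC and 165, 149 and 162 CPM in si-METTL3 (-0.33, SE 0.07, edgeR adjusted p = 0.0252). Neither gene's groups overlapped. Cox8a (mean 610 FPKM) and Cox4i1 (298 FPKM) had the highest levels of the complex, and neither passed (-0.20, SE 0.08 and -0.11, SE 0.09). Cox5b, the zinc-binding subunit, and Cox5a did not pass either (-0.34, SE 0.13 and -0.08, SE 0.10). The subunits that replace others in muscle, lung, testis or under low oxygen had few counts. Cox7a1 had 18, 3 and 10 counts in si-NC against 6, 15 and 6 in si-METTL3, and Cox4i2, Cox6b2, Cox7b2, Cox8b and Ndufa4l2 had at most 4 counts in any library. None of these was tested, and Cox6a2, the heart and muscle isoform, was tested at 0.45 ± 0.102 and 0.26 ± 0.0472 CPM without passing (-0.77, SE 0.39).

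No gene of complex V passed edgeR's threshold among 17 tested (median -0.18). Values below 0 numbered 16, and 6 genes were lower without overlap, against 47.0% and 21.3% of all tested genes. At an unadjusted p under 0.05, 6 were lower, where 18.8% of all tested genes were. DESeq2 called 3 lower, where it called 10.9% of all genes it tested lower. Atp5b, the catalytic beta subunit and the nuclear gene with the highest level (mean 908 FPKM), had 1890, 1622 and 2015 CPM in si-NC and 1714, 1563 and 1589 CPM in si-METTL3. The groups overlapped through si-NC replicate 2 (log2 fold change -0.18, SE 0.09, edgeR adjusted p = 0.204). Its partner Atp5a1, the alpha subunit, had 766 ± 85.6 and 711 ± 37.7 CPM (-0.11, SE 0.10). The stalk subunits Atp5c1 (gamma), Atp5d (delta) and Atp5e (epsilon) had values of -0.20, -0.25 and -0.14. Atp5g1, Atp5g2 and Atp5g3 encode the same mature protein of the membrane ring, and the sources used here do not give how reads shared by such copies were divided. Atp5g1 lay just outside the threshold (228, 186 and 230 against 174, 172 and 166 CPM, -0.33, edgeR adjusted p = 0.0504), while Atp5g3 (-0.15) and the low Atp5g2 (6.33 FPKM, -0.18) were farther from it. Atp5md, a small membrane subunit, had the second highest level of the complex (304 FPKM, -0.31, SE 0.10).

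Of the 17 tested assembly factors 3 fell and none rose (median -0.16), where 10.2% of all tested genes fell. Values below 0 numbered 14, and 6 genes were lower without overlap, against 47.0% and 21.3% of all tested genes. All 3 called genes serve complex IV. Cox18, which inserts part of the mitochondrially encoded mt-Co2 protein into the membrane, had 34.2, 30.2 and 35.2 CPM in si-NC and 24, 22.5 and 22.6 CPM in si-METTL3 (log2 fold change -0.53, SE 0.09, edgeR adjusted p = 0.0125). Cox10, which makes the heme of complex IV together with Cox15, fell from 104 ± 8.65 to 80.9 ± 3.75 CPM (-0.37, edgeR adjusted p = 0.0266). Cox14, which acts on newly made mt-Co1 protein, fell from 71.6 ± 7.92 to 55.6 ± 1.26 CPM (-0.37, edgeR adjusted p = 0.0377). The groups of all 3 were without overlap. Cox15 had a log2 fold change of 0.02 (SE 0.08). None of the Ndufaf genes, which assemble complex I, passed edgeR's threshold, and Ndufaf8 came nearest (-0.43, SE 0.13, edgeR adjusted p = 0.0579).

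The number of calls depended on the libraries entered. The falls of Ndufs3 and Uqcrc1 kept their call in each of the 6 fits that left out 1 library, where the highest edgeR adjusted p was 0.0313 and 0.037. They were the only nuclear calls when replicate 1 of si-NC, or replicate 2 or 3 of si-METTL3, was left out. The nuclear calls numbered 7 when replicate 3 of si-NC was left out, 8 when it was replicate 1 of si-METTL3, and 43 when it was replicate 2 of si-NC. All of these calls were lower. The share of all tested genes called was not computed for these fits, so the counts cannot be set against it. Ndufs7, Ndufa10 and Cox18 were called in 3 of the 6 fits, Ndufa6, Uqcrc2, Cox7a2l, Cox6c and Cox10 in 2, and Ndufb8, Ndufa7 and Cox14 in 1.

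**Figure D2:**
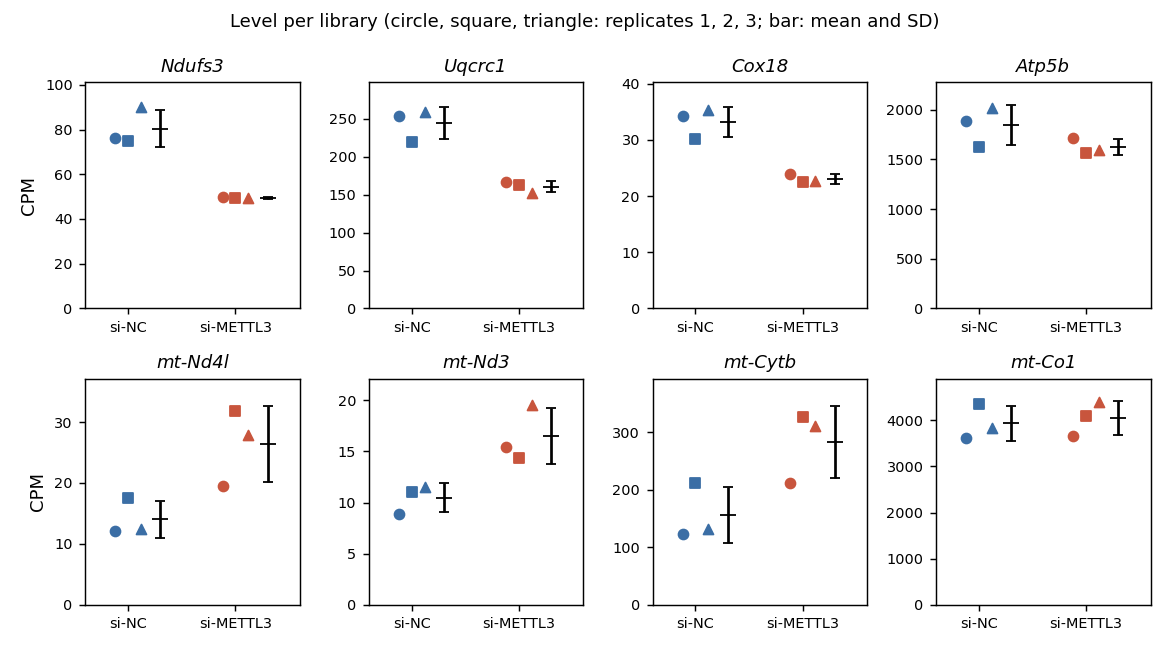
CPM of 8 genes (vertical axes, each from 0) in the 6 libraries by group (horizontal axis), with circle, square and triangle for replicates 1, 2 and 3 and a bar for the mean and SD of each group. Ndufs3, Uqcrc1 and Cox18 are lower in every si-METTL3 library, Atp5b and mt-Co1 overlap, mt-Nd4l and mt-Nd3 are higher in every si-METTL3 library, and mt-Cytb of si-NC replicate 2 meets that of si-METTL3 replicate 1.

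Levels of the mt- genes spanned a wide range. By mean FPKM mt-Co1 came first (2124), followed by mt-Co3 (773), mt-Co2 (304), mt-Atp6 (177), mt-Nd6 (163), mt-Cytb (158), mt-Nd1 (139), mt-Nd4 (75.1), mt-Nd4l (56.1), mt-Nd2 (38.8), mt-Nd3 (31.9), mt-Nd5 (28.6) and mt-Atp8 (7.61). Some neighbours in this order did not differ beyond their spread: in si-NC mt-Atp6 and mt-Nd6 had 151 ± 42.5 and 166 ± 6.65 FPKM (SD, n = 3), mt-Cytb and mt-Nd1 112 ± 36.8 and 112 ± 22.2, and mt-Nd2, mt-Nd3 and mt-Nd5 28.8 ± 8.46, 24.6 ± 3.3 and 26.6 ± 4.86. The genes of complex IV thus led, and mt-Co1 alone held between 0.356% and 0.442% of all counts of the table. All but mt-Nd6 are read from 1 strand, as parts of a long transcript that is cut at transfer RNAs. The sources used here do not say whether the counting used strand, so reads of mt-Nd6, on the minus strand, and of antisense RNA cannot be told apart, and copies of mitochondrial sequence in the nuclear genome can share reads with these genes.

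The genes mt-Nd4l and mt-Nd3, of the membrane arm of complex I, rose. mt-Nd4l (chromosome M, 9877 to 10173, plus strand, GRCm38) had 12.1, 17.5 and 12.5 CPM in si-NC and 19.6, 31.8 and 27.8 CPM in si-METTL3. The groups did not overlap, though si-NC replicate 2 came near si-METTL3 replicate 1 (log2 fold change 0.91, SE 0.22, edgeR adjusted p = 0.0293). mt-Nd3 had 8.89, 11.0 and 11.6 CPM in si-NC and 15.4, 14.4 and 19.6 CPM in si-METTL3, without overlap (0.65, SE 0.16, edgeR adjusted p = 0.0315). With 1 library left out in turn, mt-Nd4l was called in 2 of 6 fits and mt-Nd3 in 1, and the highest edgeR adjusted p was 0.11 and 0.112. The mt- rises numbered 8 when replicate 2 of si-NC was left out and 3 when it was replicate 1 of si-METTL3, and there were none when it was any one of the other 4 libraries. For these fits too the share of all tested genes was not computed. mt-Nd1 was without overlap as well but did not pass (113, 159 and 122 against 160, 205 and 210 CPM, 0.55, SE 0.16, edgeR adjusted p = 0.052). The 3 mt- genes without overlap compare with 20.2% of all tested genes.

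The other mt- genes overlapped between the groups. mt-Cytb, the only mitochondrially encoded subunit of complex III, had 123, 212 and 132 CPM in si-NC and 212, 327 and 311 CPM in si-METTL3. The value of si-NC replicate 2 was level with that of si-METTL3 replicate 1, and the other si-NC libraries were far lower (0.86, SE 0.25, edgeR adjusted p = 0.051). mt-Nd2 had a log2 fold change of 0.75 (SE 0.24), mt-Co2 0.65 (SE 0.22), mt-Atp6 0.42 (SE 0.23), mt-Nd4 0.38 (SE 0.21), mt-Co3 0.28 (SE 0.13) and mt-Nd5 0.19 (SE 0.20). mt-Atp8 had only 30 to 100 counts per library (0.87, SE 0.57). mt-Co1, the catalytic subunit of complex IV, stood at 3620, 4353 and 3830 CPM in si-NC and 3652, 4088 and 4387 CPM in si-METTL3, with the groups interleaved (0.04, SE 0.10). mt-Nd6 had 108, 106 and 101 CPM in si-NC and 99.1, 78.9 and 124 CPM in si-METTL3 (-0.06, SE 0.15). Across the 13 mt- genes the log2 fold change was lower where mean FPKM was higher (Pearson r -0.52, Spearman rho -0.45) and where the gene was longer (r -0.48, rho -0.47). The points share their libraries and the pairs of overlapping genes, and these values are descriptions.

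Relative to the mean log2 CPM of the 12 mt- genes with at least 300 counts in every library, mt-Nd4l, mt-Cytb and mt-Nd1 were higher in si-METTL3 without overlap, and mt-Co1, mt-Nd5 and mt-Co3 lower, while 6 overlapped. This centring by itself puts genes on both sides of 0. With the nuclear genes centred in the same way on their own subunit genes, 18 were higher, 16 lower and 45 overlapped. The share over all tested genes was not computed for such a centring. The relative level of mt-Co1 on the log2 scale was 5.20, 4.99 and 5.19 in si-NC against 4.84, 4.61 and 4.64 in si-METTL3, a mean difference of -0.43. For mt-Cytb it was 0.32, 0.63 and 0.33 against 0.73, 0.97 and 0.82, a difference of 0.41. Of the si-NC libraries replicate 2 lay nearest to si-METTL3 in mt-Co1, mt-Cytb, mt-Nd4l, mt-Nd5 and mt-Co3, and replicate 3 in mt-Nd1. The separation of mt-Co3 was narrow, with 2.474 in si-NC replicate 2 against 2.467 in si-METTL3 replicate 1.

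In the genome mt-Nd4l and mt-Nd4 share an RNA and overlap, as do mt-Atp8 and mt-Atp6, so the pairs are shown where they meet. The stretch at chrM:10143-10197 (plus strand, GENCODE M21, GRCm38) holds in capitals the 7 bases that belong to both mt-Nd4l and mt-Nd4, and that at chrM:7903-7993 the 43 bases of both mt-Atp8 and mt-Atp6.
mt-Nd4l and mt-Nd4: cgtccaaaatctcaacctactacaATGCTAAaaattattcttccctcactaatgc
mt-Atp8 and mt-Atp6: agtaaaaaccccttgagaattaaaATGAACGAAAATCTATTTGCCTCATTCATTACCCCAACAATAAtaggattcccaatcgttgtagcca
The CPM of mt-Nd4l per CPM of mt-Nd4 was 0.127, 0.130 and 0.127 in si-NC against 0.190, 0.2 and 0.169 in si-METTL3. The libraries of si-NC were nearly equal, si-NC replicate 2 included, and all si-METTL3 libraries lay above them, a ratio chosen after its values were seen. For mt-Atp8 per mt-Atp6 the values were 0.00875, 0.0126 and 0.00924 in si-NC against 0.00918, 0.0247 and 0.00864 in si-METTL3, which overlapped. The sources used here do not give how reads within the shared bases were assigned.

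The levels of both genomes were next set against each other by complex, as the summed CPM of the mt- genes per summed CPM of the nuclear subunit genes in the same library. In complex III, where mt-Cytb is the only mt- gene, the ratio was 0.110, 0.211 and 0.111 in si-NC against 0.230, 0.360 and 0.357 in si-METTL3. The groups did not overlap, and si-NC replicate 2 lay close to the lowest si-METTL3 library. In complex I the ratio was 0.187, 0.271 and 0.175 in si-NC against 0.252, 0.333 and 0.375 in si-METTL3, and si-NC replicate 2 exceeded si-METTL3 replicate 1. The other complexes overlapped in the same way. In complex IV the ratio was 2.08, 2.76 and 1.98 in si-NC against 2.46, 2.86 and 3.02 in si-METTL3. In complex V it was 0.0214, 0.0411 and 0.0234 against 0.0301, 0.0472 and 0.0504. By CPM, which is not scaled to length, complex IV was the only one whose mt- sum exceeded its nuclear sum, in each library. By summed FPKM its ratio was 1.00, 1.35 and 0.958 in si-NC against 1.23, 1.46 and 1.52 in si-METTL3. On that scale the mt- sum was the smaller in si-NC replicate 3. On the log2 scale the mean CPM ratio changed by 1.17 in complex III, 0.61 in complex I, 0.60 in complex V and 0.30 in complex IV, with pooled SD of 0.46, 0.32, 0.46 and 0.21. Summed over the complexes, the nuclear subunits had 10066, 8989 and 10957 CPM in si-NC and 8954, 8603 and 8511 CPM in si-METTL3, and the mt- genes 5004, 6299 and 5325 against 5429, 6467 and 6762 CPM. Without mt-Co1 the sum of the mt- genes was 1384, 1946 and 1496 CPM in si-NC against 1778, 2378 and 2375 CPM in si-METTL3.

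**Figure D3:**
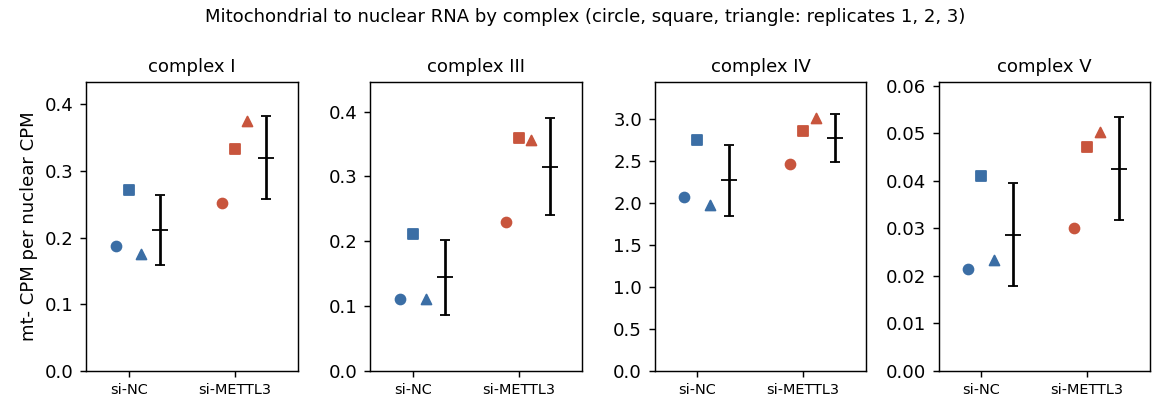
Summed CPM of the mt- genes per summed CPM of the nuclear subunit genes (vertical axes, each from 0) for complexes I, III, IV and V by group (horizontal axis), with circle, square and triangle for replicates 1, 2 and 3 and a bar for the mean and SD. In complex III the groups do not overlap, and in complexes I, IV and V the square of si-NC lies above the circle of si-METTL3.

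The medians of the nuclear and the mt- genes had opposite signs in 5 of the 6 libraries, and in si-METTL3 replicate 1 both lay just below 0. The median deviation of log2 CPM from the mean of the 6 libraries was -0.54, 0.06 and -0.32 for the mt- genes in si-NC replicates 1 to 3, and -0.05, 0.38 and 0.42 in si-METTL3. For the nuclear genes it was 0.09, -0.05 and 0.25 in si-NC against -0.07, -0.10 and -0.13 in si-METTL3. Replicate 2 of si-NC thus stood beside si-METTL3 replicate 1 in both sets, although its Mettl3 level was that of its own group. The libraries also differed in how level depended on transcript length, by -0.12, 0.02 and -0.14 on the log2 scale per doubling of length in si-NC and by 0.05, 0.09 and 0.11 in si-METTL3, and in the total count, which was lowest in si-METTL3 replicates 2 and 3. Both measures ordered the libraries much as the medians did, with si-NC replicate 2 next to si-METTL3 replicate 1. The lung markers ordered them otherwise, since si-NC replicate 3 was among the high libraries there. The part of length, depth or the markers in the medians was not tested beyond the corrections given next.

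**Figure D4:**
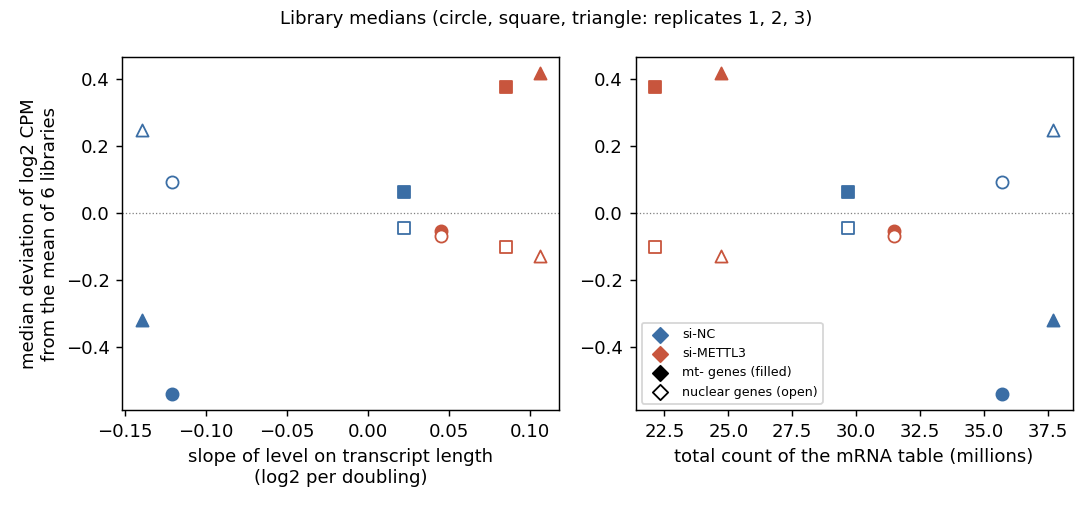
Median deviation of log2 CPM from the mean of the 6 libraries (vertical axis) for the mt- genes (filled) and the nuclear genes (open), against each library's slope of level on transcript length (left) and its total count (right), with circle, square and triangle for replicates 1, 2 and 3. The mt- medians run from -0.54 to 0.42, with the si-NC replicate 2 square at 0.06 and the si-METTL3 replicate 1 circle at -0.05.

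With each library's trend on transcript length taken out, 9 nuclear genes fell and none rose (median -0.12, against -0.05 for all tested genes, of which 10.7% fell). Values below 0 numbered 68 of 91, against 55.3% of all tested genes. The 9 included Ndufs3 (-0.59, edgeR adjusted p = 0.00415), Uqcrc1 (-0.57, edgeR adjusted p = 0.00786), Ndufs7 (-0.43) and Cox18 (-0.45). The calls of Ndufb8, Ndufa7, Uqcrc2 and Cox6c were lost (edgeR adjusted p between 0.0542 and 0.152). Uqcrc2 kept about the same value (-0.31 before and -0.30 after), while Ndufb8 went from -0.39 to -0.27, Ndufa7 from -0.39 to -0.27 and Cox6c from -0.33 to -0.21. The mt- median was 0.64, with the same count of 2 higher, against 4.79% of all tested genes. With trends on both length and GC content taken out, 15 nuclear genes fell and none rose (median -0.09, against -0.04 for all tested genes, of which 17.3% fell). Values below 0 then numbered 64 of 91, against 55.1%. Of the 13 falls in the uncorrected counts 10 were among them. Here 6 mt- genes rose, where 9.5% of all tested genes rose, and their median was 0.46. The highest values were those of mt-Nd4l (0.87, edgeR adjusted p = 0.00155) and mt-Cytb (0.79, edgeR adjusted p = 0.00162). mt-Co1 had -0.08 and mt-Nd5 -0.01 under this correction, and mt-Nd3 did not pass it (0.54, edgeR adjusted p = 0.14). The nuclear medians thus lay within 0.1 of those of all genes after either correction, while those of the mt- genes did not.

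**Figure D5:**
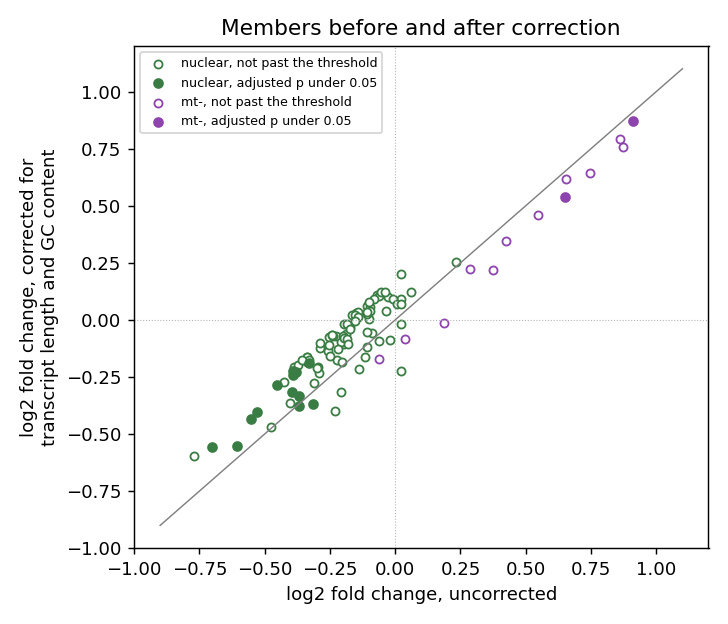
Log2 fold change of each tested gene before (horizontal axis) and after (vertical axis) correction for transcript length and GC content, nuclear in green and mt- in purple, filled where the uncorrected adjusted p is under 0.05, with the line of equality in grey. Most nuclear points lie above the line, with the median moving from -0.20 to -0.09, and the mt- points lie below it, with the median moving from 0.55 to 0.46.

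The nuclear genes were also set against the mean of the 69 nuclear subunit genes with at least 300 counts in every library, a centring that by itself puts genes on both sides of 0. The lowest differences on the log2 scale were those of Ndufs3 (-0.49), Uqcrc1 (-0.39), Ndufs7 (-0.34) and Cox18 (-0.32). The highest were those of Atp5l, a membrane subunit of complex V (0.28), and of Ndufv3 and Ndufv1, which belong to the NADH-binding tip of complex I (0.24 each). These genes were chosen after their values were seen.

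Of the nuclear genes, 80 had an entry in the RefSeq promoter table, in 86 windows of 300 bases. Nuclear genes of the respiratory chain are known targets of the factors NRF1, GABPA (an ETS factor) and YY1. On either strand, the NRF1 motif GCGCATGCG was in 10 windows (11.6%, against 1.75% of the 32851 windows of all genes). The ETS motif CCGGAAG was in 23 (26.7%, against 8.86%) and the YY1 motif AAGATGGCG in 9 (10.5%, against 1.4%). None of these motifs contains another, a window with more than 1 motif was counted for each, and windows of the same gene can overlap. At least 1 of the 3 was in 35 windows (40.7%, against 11.4%). Of 34 tested genes with a match 5 fell (median log2 fold change -0.22), and of 42 without a match 5 fell (median -0.17). Of all tested genes 10.2% fell, and both counts lay near that share. A match describes the letters of the window and not a bound site.

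The genes that serve the chain from outside the symbol rule were described by lists. Their counts are to be read against the 10.2% of all tested genes that fell and the 8.67% that rose. At an unadjusted p under 0.05 these shares were 18.8% and 16.9%, and with DESeq2 10.9% and 9.17%. Of 13 tested genes of complex II, cytochrome c and other electron carriers 2 rose and 1 fell (median -0.05). Cycs, the cytochrome c that carries electrons from complex III to complex IV, had 84.3, 82.6 and 87.8 CPM in si-NC and 59.1, 50.5 and 55.9 CPM in si-METTL3. The groups were far apart (log2 fold change -0.62, SE 0.08, edgeR adjusted p = 0.00463, called in 6 of 6 fits that left out a library). Sqor, which feeds electrons from sulfide, rose (0.50), and so did Gpd2, which feeds them from glycerol phosphate (0.23), but Gpd2 had -0.07 after the length correction. Of 37 further assembly factors 5 fell and 1 rose (median -0.14). The falls were Higd1a (-0.52), Foxred1 (-0.51, complex I), Uqcc1 (-0.49, complex III), Taco1 (-0.43, a translational activator of mt-Co1) and Oxa1l (-0.36, the insertase of the inner membrane), and the rise was Ttc19 (0.43, complex III).

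Genes for the upkeep and transcription of mitochondrial DNA gave no call among 20 tested (median -0.10), with edgeR or DESeq2, and 1 was higher and 1 lower at an unadjusted p under 0.05. Tfam, which packs and transcribes it, had 0.19 (SE 0.11), and the polymerase gene Polrmt -0.04 (SE 0.10). Of 21 genes for mitochondrial RNA processing and stability 2 fell (median -0.17). Grsf1, an RNA-binding protein of mitochondrial RNA granules, had 165, 156 and 163 CPM in si-NC and 93.1, 84.8 and 94.0 CPM in si-METTL3. It gave the largest fall of these lists (-0.83, SE 0.07, edgeR adjusted p = 9e-04, called in 6 of 6 fits that left out a library). Pde12, which removes poly(A) from mitochondrial RNA, fell by 0.28 on the log2 scale, and Lrpprc, which stabilises mitochondrial mRNA, had 0.18 (SE 0.10). Of 12 regulators of mitochondrial biogenesis only Myc fell (-0.67, SE 0.07, edgeR adjusted p = 0.00202), and none rose with edgeR. At an unadjusted p under 0.05, 1 was higher and 3 were lower, and DESeq2 called 1 higher and 1 lower. The coactivator gene Ppargc1a had 0.72 (SE 0.21, edgeR adjusted p = 0.0562), Nrf1 -0.13 (SE 0.07) and Gabpa 0.28 (SE 0.27). The genes of these lists named without a call were chosen after their values were seen.

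Enzymes of the tricarboxylic acid cycle and of pyruvate dehydrogenase gave 1 rise (Ogdh, 0.31, and 0.09 after the length correction) and 1 fall (Dlat, -0.36) among 17 tested (median -0.05). In the list of the outer membrane and import 9 of 17 fell and none rose (median -0.29), led by the prohibitin gene Phb (-0.61, SE 0.09, edgeR adjusted p = 0.00567) and the import pore gene Tomm40 (-0.54, SE 0.09, edgeR adjusted p = 0.0103). After the length correction 3 of these 17 fell, where 10.7% of all tested genes fell, and the median was -0.26. Over these lists, with 13, 37, 20, 21, 12, 17 and 17 tested genes, 23 genes were called. Of all tested genes 18.9% were called in either direction. The list calls numbered 51 when replicate 2 of si-NC was left out and 13 when it was replicate 1 of si-METTL3. They numbered 11 when it was replicate 3 of si-NC and 4 when it was any one of the other 3 libraries. The share of all tested genes was not computed for these fits.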

How the data were processed

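The authors deposited, per the file headers, read counts and FPKM values per gene for 6 libraries. All counts were whole numbers. If they came from RSEM, they had been rounded. The submitters' processing notes name RSEM, StringTie, Bowtie2 and fastp and the build mm9. Versions, roles, strand use and the division of shared reads are not given in the sources used here. Groups and replicate numbers came from the sample titles.

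Counts were tested with edgeR 4.0.16 (R 4.3.3): TMM, filterByExpr, a quasi-likelihood fit of the group over all 13082 tested genes, with a threshold of 0.05 after Benjamini-Hochberg adjustment. SE was taken as the fold change (log2) over the root of F. The test was tried on simulated data. FPKM served to compare levels between genes. Alternatives were DESeq2 1.42.0, its size factors, no filter, scaling without mt- genes, limma 3.58.1 on log2(FPKM + 1) or log2(FPKM + 0.1) with a mean FPKM of at least 1, a replicate block, splines (5 degrees of freedom) on length and GC content, and leaving out each library. Length came from counts and FPKM. Positions, the GC content of 99.9% of tested genes and symbols came from GENCODE M21 (GRCm38); 22255 of 22298 identifiers were found, and no coordinate was converted.

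Members, lists and tests were chosen with earlier results of these data known. The genes named were all mt- genes, called nuclear genes (up to 6 per complex), the core subunits (1 is not reported here), the 2 highest by FPKM per complex, isoforms with counts, and in other lists up to 2 called genes each way; others were chosen after their values were seen. Totals of 22146057 counts or more leave the genes with few counts, such as mt-Atp8, the least precise. Figures were drawn with matplotlib 3.10.9.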

Additional observations from a re-analysis of the deposited data

How the results depend on the processing

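Of the 91 nuclear and 13 mt- genes tested 15 were called, where 18.9% of all tested genes were called in either direction. DESeq2 called 25 of the respiratory chain genes, where it called 10.9% of all genes it tested lower and 9.17% higher. Leaving out 1 library gave 2 to 51. The 13 nuclear falls became 6 with the replicate block, also together with the length correction, and 2 to 43 without 1 library. The 2 mt- rises became 6 with DESeq2 or with the length and GC correction, where 9.17% and 9.5% of all genes tested rose. They became 4 with limma on log2(FPKM + 0.1) or log2(FPKM + 1) and 5 with the replicate block. With the block and the length correction they numbered 4, and without 1 library 0 to 8. Calls in the other lists numbered 23, and 4 to 51 without 1 library. With the length correction they numbered 14, where 10.7% of all tested genes fell and 4.79% rose. The cause of these changes was not tested. Shares of all tested genes called were not computed for the fits without 1 library, with the replicate block or with limma. No nuclear gene was called higher and no mt- gene lower under any of these settings, and the medians kept their signs, from -0.26 to -0.09 (nuclear) and from 0.37 to 0.68 (mt-). Deviations from the group means of same-numbered libraries correlated at 0.07, 0.20 and -0.31 over 13082 genes, and not every library correlated best with its own number. With 3 libraries per group these correlations depend on one another, so they cannot settle whether replicate numbers pair the libraries.

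Of 52 genes with values under 16 settings, 24 values changed sign, all of genes without a call in the uncorrected fit. Under the length and GC correction these were Atp5g3 (0.0214), Atp5e (0.0126), Cox4i1 (0.0242), Ndufv2 (0.00459), Ndufb9 (0.0575), Cox5a (0.0929), mt-Nd5 (-0.0143) and mt-Co1 (-0.0849). Under the length correction they were Cox4i1 (0.0135), Ndufv2 (0.00304), Ndufb9 (0.0268), Cox5a (0.044) and mt-Nd6 (0.0549), and with the block added Cox4i1 (0.0141), Ndufv2 (0.00261), Ndufb9 (0.0256), Cox5a (0.0433) and mt-Nd6 (0.0329). Without 1 library Ndufv1 ranged from -0.0567 to 0.0744, mt-Nd6 from -0.241 to 0.0866 and mt-Co1 from -0.0259 to 0.116.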

Other observations

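The deposited FPKM values use a transcript length that differs between libraries for some of these genes, which shows in the ratio of count to FPKM. Relative to the mt- genes, whose lengths did not vary, the length used for Cox10 was 1.16, 0.965 and 1.08 times its mean in the si-NC libraries and 0.961, 0.930 and 0.901 times in si-METTL3. The 2 scales therefore gave different sizes for Cox10: -0.37 from counts and -0.15 on the log2(FPKM + 1) scale (limma, adjusted p = 0.148). Its FPKM were 30.4, 32.3 and 32.7 in si-NC against 29.6, 27.7 and 28.5 in si-METTL3. For Atp5b the log2 difference in length was 0.14 (pooled SD 0.05), and its value was -0.18 from counts and -0.31 on the FPKM scale (limma, adjusted p = 0.0645). For Cox17, a copper carrier of complex IV assembly, the difference was 0.17, and for Ndufv3 it was -0.16. These 4 genes had the largest differences among 91 with at least 300 counts in every library, and they were chosen after their values were seen.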
